A study of Mus musculus with 12 samples.

Results

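The genes described are those named as cytosolic ribosomal proteins, the protein components of the ribosome that works in the cytosol. They were chosen by name (Rpl or Rps followed by a digit, Rplp0 to Rplp2, and Rpsa), leaving out the S6 kinase genes and named pseudogenes, and the rule uses names only. The rule found 89 of the 16246 genes listed in any table, and all 89 were in each of 4 tables of 15505 to 15936 genes. They comprised 31 proteins of the small subunit, 43 of the large subunit and the 3 of the ribosomal stalk, together 77 core genes. A further 11 were paralogs or gene copies, and Rps19bp1 matched by name only, since it encodes a regulator that binds a ribosomal protein. Of the copies, Rps4l, Rpl37rt, Rpl6l, Rps3a2 and Rps3a3 are annotated as processed pseudogenes, though their names do not say so. Fau and Rack1 encode ribosomal proteins too but fall outside the name rule.

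PolyA RNA of mouse heart was sequenced in 12 samples, 3 in each of 4 groups, to compare pressure load with and without dietary BCAA, the branched-chain amino acids valine, leucine and isoleucine. All mice were male C57Bl/6J of 12 weeks. They ate either a control diet with every essential amino acid, BCAA included, or a diet from which BCAA were left out, beginning 4 days before surgery. Surgery was a sham operation or transverse aortic constriction (TAC), which narrows the aorta so that the left ventricle pumps against a higher pressure, and hearts were taken 2 weeks later. The groups are named by diet and surgery, such as BCAA-free sham, and each group serves in 2 of the 4 comparisons, which therefore share libraries. Nothing in the labels tells single hearts from pooled ones, so each p-value reflects sample-to-sample spread that could be technical.

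Ribosomal proteins assemble with ribosomal RNA into a small subunit, which reads the mRNA, and a large subunit, which joins amino acids. The stalk on the large subunit recruits the elongation factors. Their mRNAs are classic TOP mRNAs, which begin with a run of pyrimidines and whose translation is switched on by the amino-acid-sensing kinase complex mTORC1, so control of their translation need not show in mRNA levels. Heart and skeletal muscle are known for an exchange of a ribosome part: Rpl3l, a muscle-specific paralog, takes the place of Rpl3, a large-subunit protein near the site of peptide bond formation.

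The start sites of 6 genes named in the results below are shown because the pyrimidine run at the start is the family's hallmark. Rpl41, Rpl27, Rps2 and Rpl3l had a TAC effect that differed between the diets, and Rplp2 and Rpl18 had the smallest adjusted p for the diet after TAC. Each line gives 30 bases before and 20 bases from the annotated RefSeq start on GRCm38.p6, 5′ to 3′ on the gene's strand. Capitals mark the longest run of C or T that overlaps the 10 bases either side of the start, where it has at least 5 bases.
Rpl41: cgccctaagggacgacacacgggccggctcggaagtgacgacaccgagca
Rpl27: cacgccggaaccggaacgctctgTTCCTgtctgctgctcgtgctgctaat
Rps2: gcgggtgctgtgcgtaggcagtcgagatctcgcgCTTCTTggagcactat
Rplp2: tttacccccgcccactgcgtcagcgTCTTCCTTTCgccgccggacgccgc
Rpl18: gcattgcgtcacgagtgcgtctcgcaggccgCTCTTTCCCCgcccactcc
Rpl3l: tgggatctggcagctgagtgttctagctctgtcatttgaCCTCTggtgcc

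These windows lie at chr10:128549149-128549198 on the minus strand (Rpl41) and, on the plus strand, at chr11:101442215-101442264 (Rpl27), chr17:24720033-24720082 (Rps2), chr7:141447621-141447670 (Rplp2), chr7:45718041-45718090 (Rpl18) and chr17:24727796-24727845 (Rpl3l, the first of 2 entries). Rplp2 and Rpl18 hold runs of 10 bases, Rps2 a run of 6, and Rpl27 and the muscle paralog Rpl3l runs of 5. The Rpl41 window holds no run of 5 at this annotated start, which says only that these letters are not there. RefSeq promoters were matched for 65 of the 89 genes. A run of at least 5 overlapped the 10 bases either side of the start in 45 of 67 core promoters (67.2%). The share was 44.9% over all 32851 promoters. Such a run need not cover the start itself. In the 300 bases from 250 before to 50 after the start, CGGAAG, the core recognised by ETS-family factors, was found on either strand in 62.7% of core promoters and 16.9% of all promoters. TATAAA, searched on both strands in the same way, was found in 8.96% and 13.6%. The annotated starts of Rps2 and Rpl3l are 7763 bases apart on the same strand of chromosome 17.

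Depth was 13845222 to 52047568 reads per library over the 15089 genes common to all tables, and the 89 genes took 1.28% to 1.91% of them. Control diet sham replicate 3 stood apart. Its share was 1.91%, against 1.47% and 1.28% in the other control diet sham libraries, and it was the highest of its group for 77 of 77 core genes. BCAA-free TAC replicate 2 was the lowest of its group for 75 core genes and BCAA-free sham replicate 2 for 64. The shares were 1.34%, 1.47% and 1.38% in control diet TAC, 1.49%, 1.36% and 1.502% in BCAA-free sham, and 1.60%, 1.43% and 1.57% in BCAA-free TAC. The groups overlapped in all 4 comparisons. In control diet TAC no library was the highest for most core genes, with 20, 37 and 20 of 77 in replicates 1 to 3.

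**Figure D1:**
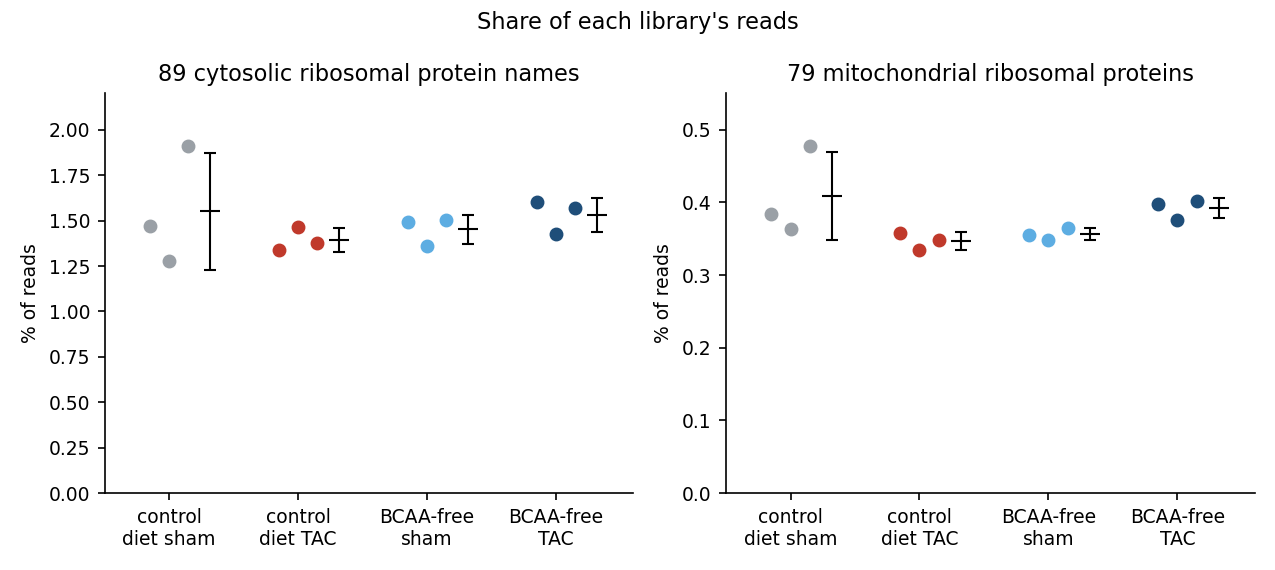
Share of reads (percent) from the 89 cytosolic ribosomal protein genes (left) and 79 mitochondrial ribosomal protein genes (right), 1 point per library, by group. Control diet sham replicate 3 is the highest library in both, at 1.91% and 0.478%.

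Levels between genes were compared as normalized read count per kb of the principal mRNA in control diet sham, as mean ± SD with n = 3. The core genes had a median level of 7637 per kb, and 67 of 77 lay within 2-fold of it. Rps2, which lines the mRNA entry of the small subunit, had the highest level at 24820 ± 4414 per kb. The stalk protein Rplp1 followed at 21575 ± 6755 per kb and Rps15, near the decoding site, at 16816 ± 5541 per kb, and these neighbours lay within each other's spread. Rps20 had the lowest core level, 1016.5 ± 303.9 per kb, but its annotated principal mRNA of 3706 bases is the longest of the family and lowers this value.

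Among the paralogs, the muscle-specific Rpl3l stood at 7050 ± 424.2 per kb, close to the core median, while its general counterpart Rpl3 stood at 3542 ± 824.5 per kb. Rps27l, a p53-responsive paralog of Rps27, reached 2060 ± 664.8 per kb. Rpl7l1, a nucleolar relative of Rpl7, Rpl22l1, a paralog of Rpl22, and Rps4l, a pseudogene copy of Rps4x, lay between 909.9 and 943.9 per kb. The copies Rps27rt, Rpl37rt, Rps3a2, Rps3a3 and Rpl6l lay between 22.1 and 107.6 per kb and are 98.7% to 100% identical to their parents in the aligned transcript. Their reads cannot be safely assigned, so their values are uncertain. Rpl3l is 77.1% identical to Rpl3, with no identical stretch over 22 bases.

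**Figure D2:**
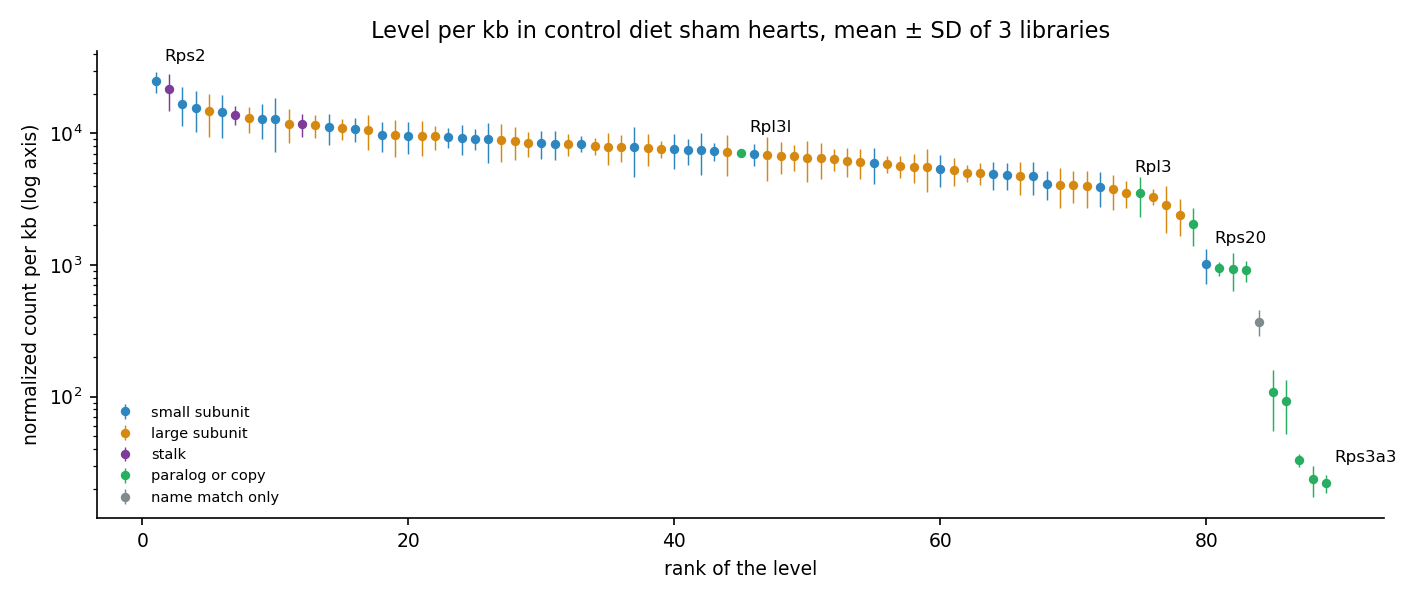
Normalized read count per kb of principal mRNA (log axis) for the 89 genes in control diet sham, by rank, as mean and SD of 3 libraries. Most core genes lie within 2-fold of the median of 7637, Rpl3l is ranked 45 and Rpl3 is ranked 74.

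Rpl3 and Rpl3l, the pair known to replace each other, took different shares in each group. The ratio of Rpl3 to Rpl3l reads, which does not depend on a library's scaling, was 0.454, 0.430 and 0.589 in control diet sham and 0.925, 3.07 and 1.07 in control diet TAC. In BCAA-free sham it was 0.651, 0.617 and 0.653, and in BCAA-free TAC 0.691, 0.744 and 0.837. The groups did not overlap in any of the 4 comparisons. The ratio was higher after TAC on both diets, higher on the BCAA-free diet after sham, and lower on the BCAA-free diet after TAC. Control diet TAC replicate 2, at 3.07, was well above the other libraries. The mean log2 ratio differed by 1.57 for TAC on the control diet, 0.24 for TAC on the BCAA-free diet, 0.40 for the diet after sham and -0.94 for the diet after TAC. Without control diet TAC replicate 2 the differences were 1.03 for TAC on the control diet and -0.40 for the diet after TAC. A two-sided exact permutation test gave p = 0.1 for each, the smallest that 3 against 3 allows, and 0.1 after adjustment over the 4.

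In RPM, reads scaled to an equal total over the common genes in every library, Rpl3l stood at 312 ± 9.66 in control diet sham, 166 ± 60.2 in control diet TAC, 266 ± 3.48 in BCAA-free sham and 276 ± 6.38 in BCAA-free TAC (SD, n = 3). Rpl3 stood at 153.5 ± 31.1, 231.8 ± 58.8, 170.1 ± 4.25 and 208.7 ± 15.6 in the same order. Rpl3l thus made up 67.2% ± 3.74 of the reads of the pair in control diet sham and 41.7% ± 14.9 in control diet TAC, but 61.0% ± 0.761 and 57.0% ± 2.38 in the BCAA-free groups.

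**Figure D3:**
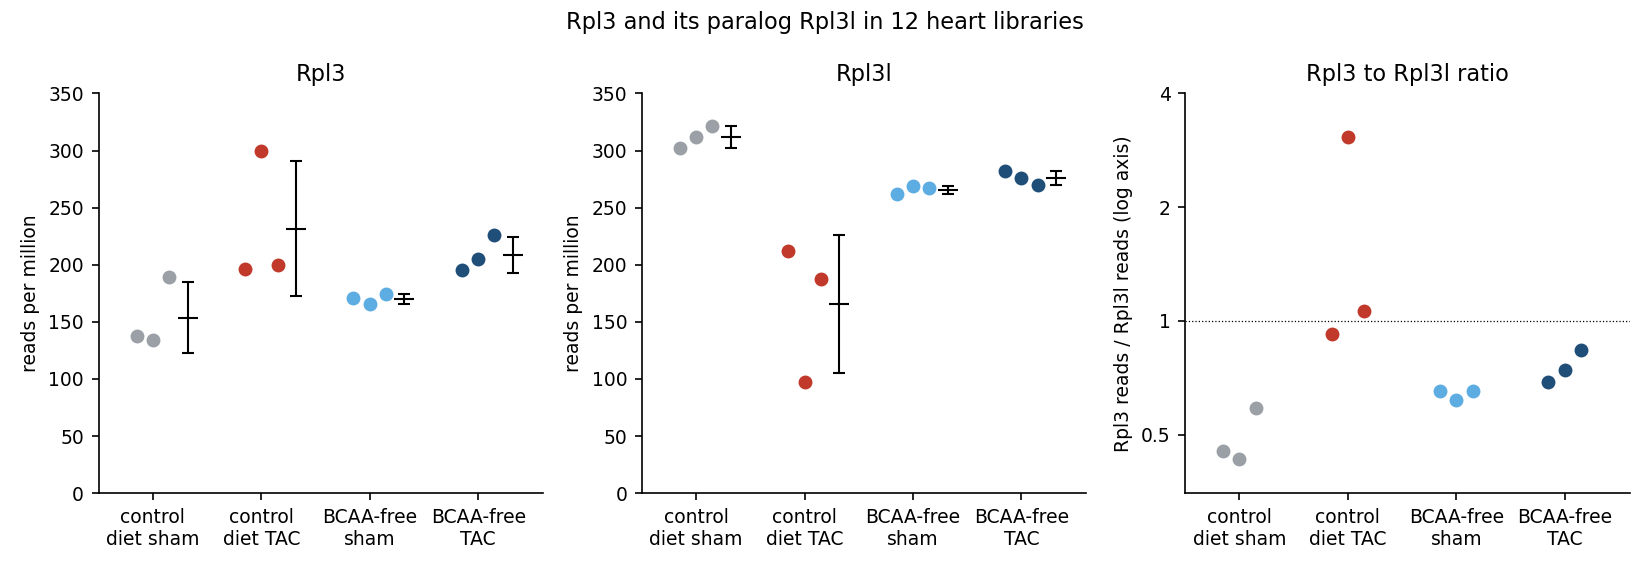
Rpl3 (left) and Rpl3l (middle) in RPM and the ratio of their reads on a log axis (right), 1 point per library, by group. The ratio is 0.430 to 0.589 in control diet sham and 0.925 to 3.07 in control diet TAC, and 0.617 to 0.837 across both BCAA-free groups.

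No ribosomal protein gene passed the test for TAC against sham on the control diet, but nearly all lay lower. With limma on log2(value + 1), adjusted over all 15397 genes tested, 0 of 89 had an adjusted p under 0.05, where 4.04% of all genes did. At an unadjusted p under 0.05 there were 11 of 89 (12.4%), against 28.2% of all genes. DESeq2 called 3 of 89 lower, where it called 5.92% of all genes lower. On recovered reads edgeR called 0 within the 6 libraries and 10 lower on all 12, where it called 9.25% of genes lower. The median log2 fold change was -0.28, beside -0.0047 over all genes, with 86 of 89 negative. All 3 TAC libraries lay below all 3 sham libraries for 23 of 89 genes, where 17.4% of all genes did so. With library totals the median was -0.13, beside 0.15 over all genes. With GC and length trends removed it was -0.13, beside -0.0014, and with those of principal mRNAs removed -0.098, beside -0.0003. Without control diet sham replicate 3 it was -0.088, beside -0.0062.

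Rpl3l was at 6099, 2616 and 5324 normalized read counts in control diet TAC and 9163, 9600 and 10318 in sham. Every TAC library lay below every sham library. The log2 fold change was -1.14 ± 0.28 (SE; adjusted p = 0.0547 by limma), just short of the threshold. Without control diet TAC replicate 2, the library with the lowest Rpl3l, it was -0.76 (adjusted p = 0.0294). It passed in 6 of 18 alternatives, among them DESeq2 (adjusted p = 0.00144) and edgeR on all 12 libraries (adjusted p = 0.00838). Rpl3 was the only core gene with a positive log2 fold change, at 5640, 8022 and 5671 in TAC and 4159, 4126 and 6072 in sham. Its groups overlapped through control diet sham replicate 3, and 0.43 ± 0.19 did not pass (adjusted p = 0.176). Its share of core ribosomal protein reads was 1.67% in TAC and 1.02% in sham, a log2 difference of 0.71, while the median core gene's share differed by 0.086 in size.

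Of the other core genes, Rps29, a zinc-binding protein of the small-subunit head, had the lowest log2 fold change (-0.55 ± 0.19, adjusted p = 0.106 by limma). It stood at 3595, 3150 and 3336 in TAC and 4787, 3706 and 6658 in sham, without overlap. Rpl36 and Rps21, small proteins of the large and the small subunit, followed at -0.51 and -0.49. The stalk genes Rplp0, Rplp1 and Rplp2 were at -0.31, -0.39 and -0.38, none passing.

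The markers of other cells moved with these values. The summed level of 10 cardiomyocyte markers was 2057600 to 2564200 in control diet TAC and 2876300 to 3002700 in sham, and 1 of 10, Tnni3, fell. Of 10 fibroblast markers 4 rose, and their sum was 90631 to 149390 against 67007 to 75881. Their part in the lower Rpl3l, a muscle gene, was not tested. In bulk tissue, fewer cells of a type and less RNA per cell cannot be told apart. The sum of 6 atrial markers ran from 28532 to 91588 in TAC and 8171 to 22969 in sham, and none passed.

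After TAC on the BCAA-free diet, 7 ribosomal protein genes rose and none fell. These were Rpl41, Rpl27, Rpl31, Rpl3 and Rpl18 of the large subunit, Rps21 of the small subunit and the paralog Rpl36al, where 3.34% of all 15670 genes rose. The median over the 89 was 0.11 on the log2 scale and 0.0014 over all genes. It was 0.016 with GC and length trends removed and 0.030 with those of principal mRNAs removed. All TAC libraries lay above all sham libraries for 18 of 89 genes, where 14.6% of all genes did so.

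Rpl41, a very short basic peptide of the large subunit, was at 5216, 4454 and 5152 in TAC and 3558, 3606 and 3533 in sham. No library overlapped, and the log2 fold change was 0.47 ± 0.077 (adjusted p = 0.0117 by limma). Rpl27 followed at 0.35 ± 0.076 (adjusted p = 0.0246) and Rpl31, beside the exit of the peptide tunnel, at 0.34 ± 0.075 (adjusted p = 0.0258). Rps21 rose by 0.41 ± 0.11 (adjusted p = 0.0454) and Rpl18 by 0.25 ± 0.066 (adjusted p = 0.0469). Rpl36al, a paralog of Rpl36a that is 87.7% identical to it, rose by 0.33 ± 0.072 (adjusted p = 0.0258).

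Rpl3 rose on this diet, from 5963, 5972 and 6158 in sham to 7083, 7232 and 8220 in TAC (log2 fold change 0.31 ± 0.075, adjusted p = 0.0344 by limma). Rpl3l did not pass, at 10254, 9726 and 9821 in TAC and 9159, 9685 and 9435 in sham (0.08 ± 0.066, adjusted p = 0.521), although no libraries overlapped. With trends over GC content and transcript length removed, 1 of 89 genes, Rpl31, still rose, where 0.422% of all genes did, and with the replicate block added 5 rose, where 0.863% of all genes did. The count was 0 without BCAA-free TAC replicate 3 or BCAA-free sham replicate 2, where 0.262% and 0.594% of all genes rose. It was 1 without BCAA-free sham replicate 1 (0.672%) and 3 without BCAA-free TAC replicate 1 (2.69%). Of 10 cardiomyocyte markers 2 rose, and their sum was 3826900 to 3851700 in TAC and 3432800 to 3773600 in sham. Of 10 macrophage markers 3 rose, and the part of both lists was not tested.

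After sham surgery no ribosomal protein gene passed the test between the diets. By limma 0 of 89 had an adjusted p under 0.05, where 0.624% of all 15217 genes did, 4 (4.49%) had an unadjusted p under 0.05 against 16.6% of all genes, and DESeq2 and edgeR called 0. The median log2 fold change, BCAA-free minus control, was -0.13, and 6 genes had no overlap between the groups, all lower on the BCAA-free diet, where 23.0% of all genes had no overlap in either direction. Without control diet sham replicate 3 the median was 0.063, so its sign rests on that library, and Rpl3 alone was called (0.31, adjusted p = 0.0478). Rpl41 was at 2922, 2960 and 2903 on the BCAA-free diet and 3317, 3402 and 5513 on the control diet (-0.44 ± 0.17, adjusted p = 0.245). Rps27l was at 741, 671 and 709 against 841, 779 and 1349, also without overlap (-0.44 ± 0.18, adjusted p = 0.259). Rpl3l was lower without overlap too, at -0.27 ± 0.099 (adjusted p = 0.209).

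After TAC, 41 of the 89 genes were higher on the BCAA-free diet than on the control diet and none was lower, where 16.5% of all 15872 genes were higher. They were 16 of 31 small-subunit genes, 19 of 43 large-subunit genes, all 3 stalk genes and 3 of 11 paralogs or copies (Rpl22l1, Rpl36al and Rps4l). The median log2 fold change was 0.24, beside 0.0003 over all genes, and 87 of 89 were positive. For 57 genes all BCAA-free libraries lay above all control diet libraries, where 25.2% of all genes did so.

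The stalk gene Rplp2 was at 6541, 5650 and 6354 on the BCAA-free diet and 4643, 4477 and 4639 on the control diet. It had the smallest adjusted p (0.00558 by limma) at a log2 fold change of 0.43 ± 0.082. Its stalk partners rose too, Rplp0 by 0.35 ± 0.092 (adjusted p = 0.0188) and Rplp1 by 0.30 ± 0.085 (adjusted p = 0.0251). Rps21 had the largest core log2 fold change, from 2939, 2398 and 2389 to 4004, 3244 and 3885 (0.53 ± 0.11, adjusted p = 0.00806). Rps29 rose by 0.50 ± 0.11 (adjusted p = 0.00779). Rpl27 (0.43), Rpl30 (0.42), Rpl41 (0.42) and Rpl28 (0.40) of the large subunit lay close together, with adjusted p of 0.00658, 0.00681, 0.00916 and 0.00751. The large-subunit gene Rpl18 rose by 0.38 ± 0.073 (adjusted p = 0.00566). The count of higher genes was 12 without BCAA-free TAC replicate 1, 10 without BCAA-free TAC replicate 3 and 16 without control diet TAC replicate 3, where 10.1%, 9.81% and 10.8% of all genes were higher, at medians of 0.21, 0.22 and 0.25.

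Several known members did not pass. Rpl3 was at 7339, 7508 and 8521 on the BCAA-free diet and 6903, 9750 and 6907 on the control diet, at a log2 fold change of 0.00 ± 0.14 (adjusted p = 0.982 by limma). Rpl3l was at 10626, 10098 and 10181 against 7464, 3179 and 6485, without overlap, but its spread on the control diet left 0.94 ± 0.31 short of the threshold (adjusted p = 0.057). It passed with DESeq2 (adjusted p = 0.00156), edgeR on all 12 libraries (0.011), the replicate block (0.0416) and a mean of at least 100 (0.0474). Without control diet TAC replicate 2 it was 0.57 (adjusted p = 0.000655) and without replicate 1 it was 1.18 (adjusted p = 0.0283). Rpl7l1, the nucleolar relative of Rpl7, was at 0.04 and Rps19bp1, which is no ribosomal protein, at -0.01. Rps6, the substrate of the S6 kinases, was at 0.22 (adjusted p = 0.0772), Rpsa, also known as the laminin receptor, at 0.26 (0.0518) and Rps27a, made as a fusion to ubiquitin, at 0.14 (0.316).

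Among the paralogs, Rpl22l1 was at 557, 550.5 and 645 on the BCAA-free diet and 478, 444 and 409 on the control diet. It did not overlap and rose by 0.40 ± 0.10 (adjusted p = 0.0188 by limma), while its parent Rpl22 was at 0.09 (adjusted p = 0.461). The annotated pseudogene Rps4l rose by 0.40 ± 0.13 (adjusted p = 0.0449) and its parent Rps4x was at 0.20 (adjusted p = 0.1). Rpl36al rose by 0.32 ± 0.073 (adjusted p = 0.0101) and Rpl36a was at 0.20 (adjusted p = 0.113). For Rps27 and Rps27l the order was the other way, with 0.32 (adjusted p = 0.022) for Rps27 and 0.11 (adjusted p = 0.471) for Rps27l. The differences within these pairs were not tested.

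**Figure D4:**
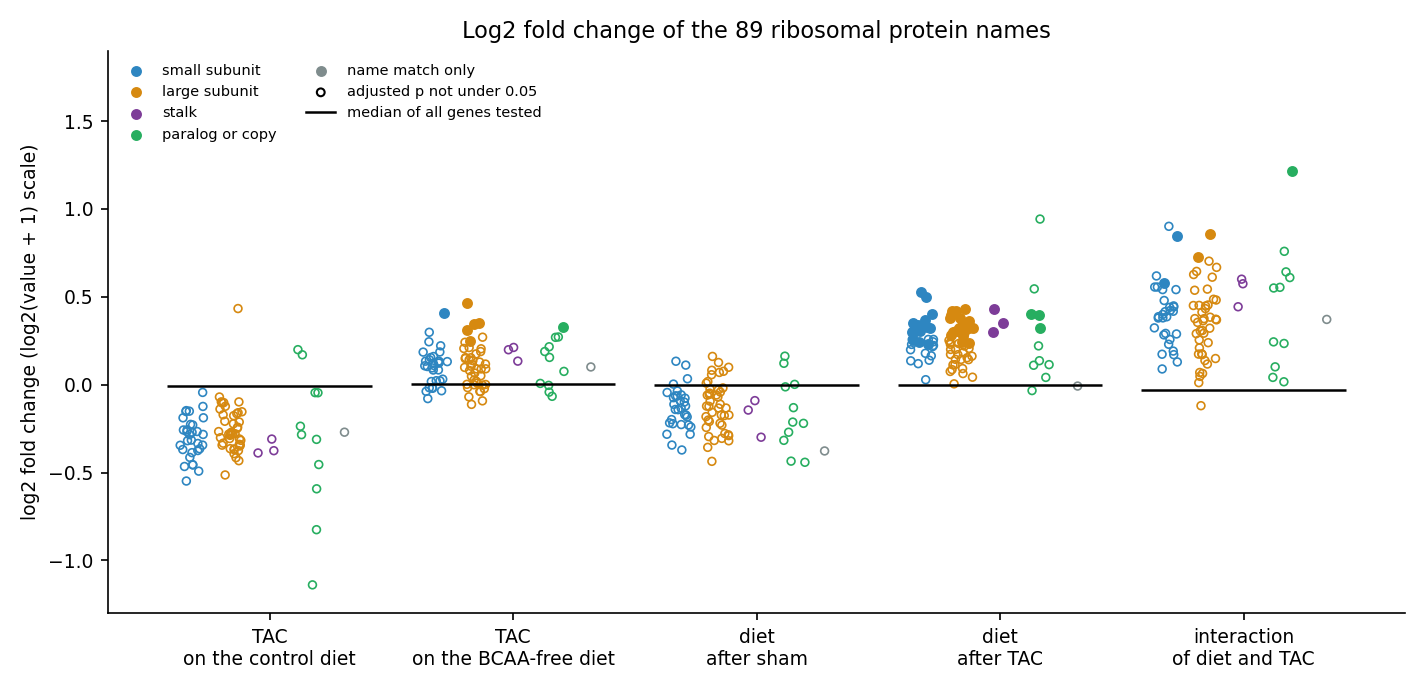
Log2 fold change of each of the 89 genes in the 4 comparisons and the interaction, by class. Filled points have an adjusted p under 0.05 by limma, lines are the median of all genes tested, and the medians of the 89 are -0.28 and 0.11 for TAC on the control and BCAA-free diets, -0.13 for the diet after sham, 0.24 for the diet after TAC and 0.38 for the interaction.

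The same comparison moved cell type markers. The cardiomyocyte marker sum was 3973300 to 3992900 on the BCAA-free diet and 2500800 to 3138000 on the control diet, and 7 of 10 markers rose. Fibroblast markers fell in 8 of 10 cases (sums of 75855 to 88563 against 110910 to 181570) and macrophage markers in 9 of 10 (8883 to 10403 against 13314 to 16484). Of 10 endothelial markers 5 fell and 1 rose (47497 to 54556 against 57113 to 58095), and 3 of 6 atrial markers rose (27177 to 64582 against 34751 to 111320). Of 10 lymphocyte markers 4 were tested, at summed levels of 59.2 to 139.0, and 1 fell. The part of these in the ribosomal protein values was not tested.

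The number of higher genes changed with the scaling and with corrections for transcript properties. Scaling to library totals alone moved the median of all genes by -0.13 and left 9 genes higher, at a median of 0.11. With it 1461 of all genes (9.21%) were higher and 3800 lower, against 2618 and 2817 as deposited. Once trends over the GC content and length of the longest transcript were removed, 13 of 89 were higher and 1, Rpl29, was lower, where 13.8% of all genes were higher. With the principal mRNA in its place 4 were higher (Rpl30, Rpl5, Rps20 and Rps3), where 13.4% of all genes were higher, and Rpl29 was again lower. Rpl5, which binds Mdm2 when ribosome assembly is disturbed, was then at 0.29 (adjusted p = 0.0215 by limma) and Rps3, at the mRNA entry, at 0.33 (adjusted p = 0.0125). Rps20 was at 0.48, but rests on the long annotated mRNA named above. The median over the 89 was 0.052 with the longest transcripts and 0.050 with the principal mRNAs.

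**Figure D5:**
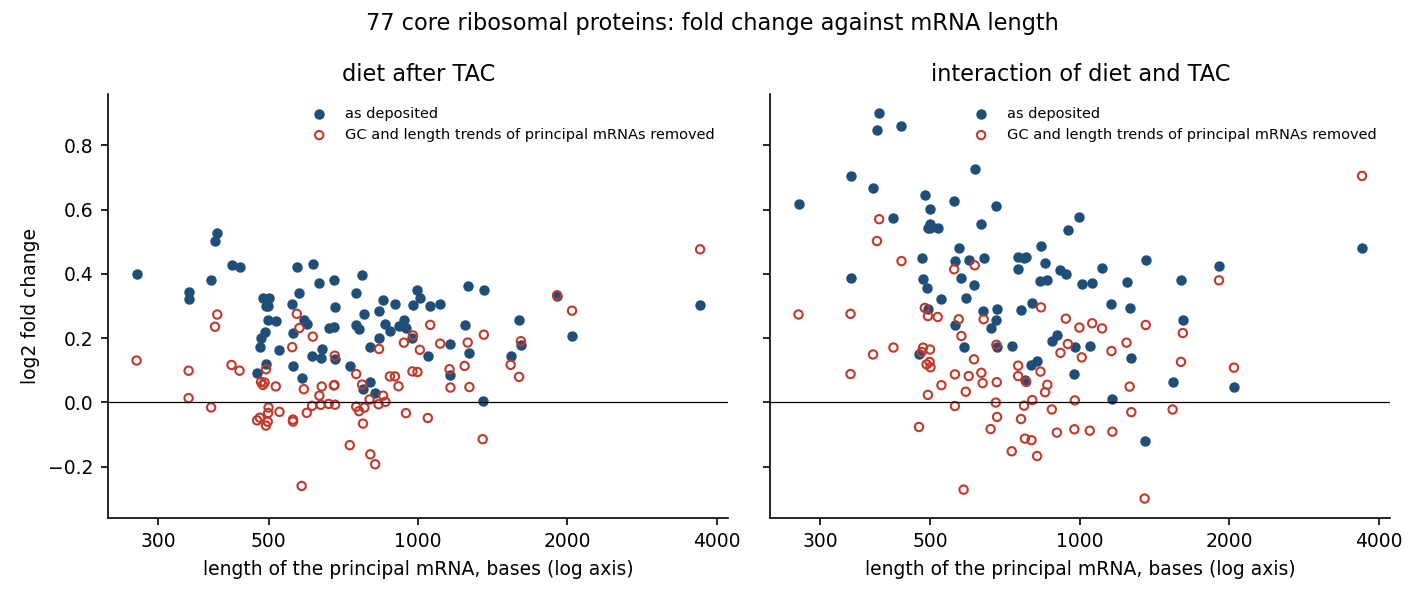
Log2 fold change of the 77 core genes against the length of the principal mRNA in bases (log axis), for the diet after TAC (left) and the interaction (right), as deposited (filled) and with the GC and length trends of principal mRNAs removed (open). The median over the 89 genes is nearer 0 after removal, at 0.050 for the diet after TAC and 0.11 for the interaction, while single genes such as Rps20 and Rpl29 move away from 0.

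The median core log2 fold change was larger in size for short than for long mRNAs in all 4 comparisons and the interaction. For TAC on the control diet the shorter 39 had a median log2 fold change of -0.34 and the longer 38 of -0.26, and Spearman's correlation with length was 0.493. For TAC on the BCAA-free diet it was -0.338, for the diet after sham 0.552, for the diet after TAC -0.225 and for the interaction -0.486. These describe 77 genes that share the same libraries, and genes are not independent replicates.

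The TAC effect was more positive on the BCAA-free diet for 88 of 89 genes, and 5 passed the test of the difference itself. On 12 libraries and 15195 genes by limma these were Rpl41, Rpl27, Rps29, Rpl3l and Rps2, where 4.92% of all genes passed in this direction. The count of 5 of 89 lay near that share. Rpl41 differed by 0.86 ± 0.22 (adjusted p = 0.0329), Rpl27 by 0.73 ± 0.20 (0.0393) and Rps29 by 0.85 ± 0.23 (0.0394). Rpl3l had the largest difference, 1.21 ± 0.32 (adjusted p = 0.0394), and Rps2 the smallest of the 5, 0.58 ± 0.17 (adjusted p = 0.0485). The median was 0.38, beside -0.03 over all genes, and 0.18 without control diet sham replicate 3. Rpl3 alone was negative, at -0.12 ± 0.22 (adjusted p = 0.754).

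Rps2 gives an example in single libraries, and neither of its TAC effects passed alone. Such separation was not general. On the control diet 23 of 89 genes had every TAC library lower, where 17.4% of all genes did. On the BCAA-free diet 18 had every TAC library higher, where 14.6% of all genes did. Rps2 was at 19885, 16157 and 17835 in control diet TAC against 21762, 22721 and 29827 in sham, every TAC library lower. On the BCAA-free diet it was at 25895, 26062 and 28477 in TAC against 24016, 24651 and 25147 in sham, every TAC library higher. With GC and length trends removed 0 of 89 passed by limma, where 1.83% of all genes passed upward, so the 5 calls depend on that choice. The count was 27 without control diet sham replicate 2, where 5.42% of all genes passed upward, and 0 without BCAA-free TAC replicate 1 or 3 or without any 1 of the 3 BCAA-free sham libraries, where 0.836% to 3.38% did. The median of the 89 was 0.53 in the former and 0.34 to 0.41 in the latter. The count was 1 without control diet TAC replicate 3, where 2.27% of all genes passed upward. It was 2 without control diet TAC replicate 2 (2.27%) or BCAA-free TAC replicate 2 (2.49%). The stalk gene Rplp2 fell just short, at 0.57 ± 0.17 (adjusted p = 0.0513).

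Genes around the ribosome were read from lists. The 79 mitochondrial ribosomal protein genes, which serve the separate ribosome of mitochondria, moved in the same directions. After TAC on the control diet 2 fell, where 1.09% of all genes did, and on the BCAA-free diet 9 rose, where 3.34% did. Between the diets after sham 0 passed, where 0.624% of all genes did. On the BCAA-free diet after TAC 42 were higher (16.5% of all genes), and 28 passed the interaction upward (4.92%). Of the 89 cytosolic names 41 and 5 did so. The medians of the 79 mitochondrial genes were -0.37, 0.17, -0.21, 0.29 and 0.53. Outside the name rule, Fau, made as a fusion to a relative of ubiquitin, was higher on the BCAA-free diet after TAC (0.34, adjusted p = 0.0132, by limma). Rack1, a scaffold on the small subunit, did not pass (0.12, adjusted p = 0.316).

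Lists of other translation genes held called genes in both directions in that comparison, in which 16.5% of all genes were higher and 17.7% lower. Of 11 elongation factors 4 were higher and 1, Eif5a2, lower, with a median of 0.21 on the log2 scale: Eef2, which moves the ribosome along the mRNA, was at 0.46 (adjusted p = 0.00697 by limma) and Eef2k, the kinase that inhibits it, at 0.55 (adjusted p = 0.00179). Of 43 initiation factors 8 were higher and 7 lower (median 0.07), with Eif3f at 0.40 and the poly(A)-binding Pabpc1 at -0.53. Of 64 ribosome biogenesis genes 10 were higher and 7 lower (median 0.02), with Rrs1 at 0.58 and Rrp12 at -0.68. Of 20 other TOP mRNA genes 4 were higher and 2 lower (median 0.13). Of 21 genes of mTORC1 and TOP control 7 were higher and 3 lower (median 0.05). Eif4ebp1, which holds back cap-dependent translation until mTORC1 inactivates it, was at 0.37 (adjusted p = 0.00612) and also rose after TAC on the BCAA-free diet (0.64, adjusted p = 0.0143). Mtor was at -0.11 (adjusted p = 0.38) and Larp1, which binds TOP mRNAs, at -0.05 (adjusted p = 0.704).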

How the data were processed

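Normalized read counts were deposited by the authors as 4 tables, each of 2 groups and 6 libraries; the values show a signal in which every gene of a library was divided by 1 size factor. All values (100%) came out as whole reads within 0.01. Of 184731 values compared between the 2 tables that hold a library, 0 differed in their number of reads. Tables were normalized separately, so values were compared within a table. STAR 2.5.2b, Trimmomatic 0.36, DESeq2 and Subread 1.5.2 are listed, per the submitters' processing notes, beside the builds GRCm38 and mm10. What each tool did is not given in the sources used here.

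The members and gene lists were chosen with earlier results of these data known. Each comparison was fitted with limma 3.58.1 in R 4.3.3 (trend, robust variances, statmod 1.5.0) on log2(value + 1) of the deposited signal, over genes with a mean of at least 10, with Benjamini-Hochberg adjustment over all genes tested at 0.05. The interaction used the 12 libraries of the TAC tables joined. Named members were, per comparison, the called members up to 10 with the smallest p in each direction, the 5 highest and 5 lowest log2 fold changes at a mean of at least 100, and a set of paralogs, stalk genes and well-known members; some genes under this rule are not reported here. Levels per kb and trends used Ensembl IDs matched to GENCODE M21 of GRCm38 (99.8% of genes), and promoters used RefSeq on GRCm38.p6. Alternatives were other scalings, filters and pseudocounts, a replicate block, DESeq2 1.42.0, edgeR 4.0.16 on recovered reads, trends removed, and each library left out. The script was tested on simulated data.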

Additional observations from a re-analysis of the deposited data

Results flagged for a closer look

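The TAC effect differed between the diets for 5 of 89 ribosomal protein genes, by the test of the difference itself (limma, 12 libraries, adjusted over all genes). This count lay near the share over all genes, 4.92% in the same direction. With GC and length trends removed 0 of 89 passed, where 1.83% of all genes did. Without BCAA-free TAC replicate 1 or 3, or any BCAA-free sham library, 0 passed, where 0.836% to 3.38% of all genes did. The BCAA-free effect minus the control diet effect was 0.86 for Rpl41 (adjusted p = 0.0329), 0.73 for Rpl27 (0.0393), 0.85 for Rps29 (0.0394), 1.21 for Rpl3l (0.0394) and 0.58 for Rps2 (0.0485) on the log2 scale. No test for single outlying libraries was run within the groups of 3.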

How the results depend on the processing

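Numbers of called genes changed with the setting, while the sign of each median held except 1: the median of the diet after sham was 0.063 without control diet sham replicate 3. TAC on the control diet called 1 gene lower with library totals (0.967% of all genes lower) and 1 with the replicate block (1.8%). It called 3 lower with DESeq2 (5.92%), 0 with edgeR within its 6 libraries (0.87%) and 10 with edgeR on all 12 (9.25%). With a library left out it called 0 to 1, where 0% to 2.41% of all genes were lower. TAC on the BCAA-free diet called 1 gene higher with GC content and length trends removed, where 0.422% of all genes were higher. It called 5 with those trends removed and the replicate block (0.863%). With the trends of principal mRNAs removed it called 0 (0.531%), and with edgeR on all 12 libraries 0 (0.336%). A library left out gave 0 to 7 (0.262% to 3.79%). The diet after sham called 0 to 1 higher with a library left out, where 0.00658% to 1.37% of all genes were higher. The median of the 89 was then -0.29 to 0.063. The diet after TAC called 9 genes higher with library totals, where 9.21% of all genes were higher. It called 49 higher with DESeq2 (16.7%), 35 with edgeR within its 6 libraries (16.1%) and 17 with edgeR on all 12 (15.3%). With GC and length trends removed it called 14, of which 13 were higher (13.8%) and 1 lower (14.1% of all genes lower). With those trends removed and the replicate block it called 10 higher (11.1%). With principal mRNA trends removed it called 5, of which 4 were higher (13.4%) and 1 lower (14.2% of all genes lower). A library left out gave 10 to 50 higher (9.81% to 16.2%). The count was 12 without BCAA-free TAC replicate 1 (10.1%), 10 without BCAA-free TAC replicate 3 (9.81%) and 16 without control diet TAC replicate 3 (10.8%). The interaction called 2 upward with library totals, where 2.55% of all genes passed upward, and 18 with DESeq2 (8.08%). It called 0 with the GC and length trends removed (1.83%), and 0 with the replicate block added (2.31%). With principal mRNA trends removed it called 0 (1.7%). A library left out gave 0 to 27 (0.836% to 6.42%). The settings with principal mRNAs, and with the block beside the trends, were chosen after seeing the data. The cause was not tested. Library totals shifted the median of all genes by 0.15 for TAC on the control diet and -0.17 for the interaction. With them 1267 of all genes rose and 149 fell after TAC on the control diet (454 and 168 as deposited), and the interaction passed for 388 upward and 1465 downward (747 and 567 as deposited). Nothing in the labels pairs samples by replicate number. Same-numbered deviations from group means correlated by -0.182 to 0.081, which cannot settle the question with 3 libraries per group. In the order above the replicate block called 1 lower and then 9, 0, 33 and 6 higher. For TAC on the control diet 1.8% of all genes were lower, and in the other fits 4.31%, 0.407%, 13.9% and 5.98% were higher. Depth limits the low copies most: Rps3a3 stood at 22.1 normalized read counts per kb.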
